A study of Ovis aries with 32 samples.

Results

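EGR1, EGR3, NR4A1 and NR4A2 are immediate early genes, and their messenger RNA was followed in ovine middle cerebral arteries (MCA) of 4 ages, left untreated or exposed to phenylephrine (PHE). The genes were located on the array by 3 routes: an accession, the gene name in the array files, or a match of the group means in the study's first supplementary table to the arrays. These routes gave 4 genes with 6 probes, of 2268 named genes and 15008 probes in all. EGR1 had 3 probes (A_70_P041732, A_70_P041731 and A_70_P023511) and each of the other genes had 1 (EGR3 A_70_P040546, NR4A1 A_70_P030486, NR4A2 A_70_P030516). A further 2 probes (A_70_P059661 and A_70_P059662) carry EGR1 only in their description and are shown beside the others without entering the counts.

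The supplementary table lists only genes that the study reported as altered by PHE. A probe named through it at an age was therefore sure to differ at that age, and its call there is no independent evidence. That holds for EGR3 at every age, for NR4A1 at every age but the premature fetus, and for NR4A2 at every age but the adult sheep. It also holds for the EGR1 probe A_70_P023511 in the near-term fetus and newborn lamb. A_70_P041731 was matched to the table in the premature fetus and adult sheep, and carries the name EGR1 in the files as well. The EGR1 probe A_70_P041732, named in the files, and the pair named by description owe nothing to that table.

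Arteries of sheep (Ovis aries) came from animals of 4 ages, called here premature fetus, near-term fetus, newborn lamb and adult sheep. The labels and the study's design text both put the premature fetus at 96 days of gestation. For the near-term fetus the labels give 146 days and the design text 140, for the newborn lamb 12 hours against 5 days, and for the adult sheep 2 years against 18 to 24 months (non-pregnant). Each age had 4 untreated arrays and 4 arrays of segments kept with 10 µM PHE for 30 minutes, 32 single-dye arrays in 8 groups. Whole vessel segments were used, so every value is an average over the cell types of the wall.

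EGR proteins are zinc finger transcription factors, and NR4A proteins are orphan nuclear receptors that act without a known hormone. Cells transcribe their genes within minutes of a growth factor, a rise in calcium or a mechanical stimulus, with no need for new protein, and the messengers are short-lived. In vessels, EGR1 is known as a switch of injury, growth factor and coagulation genes, EGR3 as a partner in growth factor signalling, and NR4A1 and NR4A2 as regulators of smooth muscle growth and of inflammation. PHE activates alpha1-adrenergic receptors, which signal through calcium, protein kinase C and MAP kinases.

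Values are log2 intensities relative to the 75th percentile of each array, so that 0 is that percentile. Levels of different probes cannot be compared with each other. A probe was called when limma's Benjamini-Hochberg adjusted p over all probes tested was under 0.05 and the difference at least 1.5-fold either way, and a gene was called when any of its probes was. The arrays' number limits the precision. The 75th percentile stood between 7.55 and 19.4 times the background on the arrays of the newborn lamb, premature fetus and adult sheep. Among near-term arrays it ranged from 1.41 times (untreated replicate 4) to 20.1 times (PHE replicate 4), with untreated replicate 3 at 4.30 times (and 53 outlier spots, the most of any array) and PHE replicate 1 at 4.59 times. Untreated replicate 4 was the dimmest array, and PHE replicate 1 had the lowest near-term PHE values of EGR3, NR4A1 and the 3 EGR1 probes counted. For A_70_P041732, EGR3, NR4A1 and NR4A2 the PHE differences of that age are also given without each of these 2. So are the differences of PHE effects between that age and others in which A_70_P041732, NR4A1 or NR4A2 was called.

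EGR1 rose with PHE at each of the 4 ages. On probe A_70_P041732 the rise was 15.1-fold in the premature fetus (95% interval 8.52 to 26.8), 70.8-fold in the near-term fetus (39.96 to 125.5), 3.39-fold in the newborn lamb (1.92 to 6.02) and 46.8-fold in the adult sheep (26.4 to 83.0), with 4 arrays a group. All 4 PHE arrays lay above all 4 untreated arrays at every age. More cells of a type and more messenger per cell cannot be told apart in such tissue.

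In the premature fetus, A_70_P041732 stood at -2.84, -2.83, -2.89 and -2.83 on the untreated arrays and at 1.22, 1.11, 1.19 and 0.76 with PHE. Both groups were tight. The log2 difference was 3.92 (SE 0.40, adjusted p = 6.17e-08). In the near-term fetus the untreated arrays stood at -2.24, -1.80, -1.78 and -0.84 and the PHE arrays at 3.48, 4.11, 5.23 and 5.11, a difference of 6.15 (SE 0.40, adjusted p = 2.16e-11). The highest untreated value there came from the dim replicate 4 and the lowest PHE value from replicate 1. Without those arrays in turn the difference was 6.42 and 6.48.

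The newborn lamb gave a narrower gap on A_70_P041732. Its untreated arrays stood at -2.15, -2.84, -1.53 and -0.90, and its PHE arrays at -0.55, -0.22, 0.35 and 0.05, a difference of 1.76 (SE 0.40, adjusted p = 0.00356). Untreated replicate 4 lay just under PHE replicate 1. Adult untreated values were -1.86, -2.64, -2.46 and -2.37 and the PHE values 3.58, 3.73, 3.54 and 2.02, a difference of 5.55 (SE 0.40, adjusted p = 1.54e-10), with PHE replicate 4 apart from the other PHE arrays.

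The second EGR1 probe, A_70_P041731, stood at -6.22, -5.08, -5.71 and -6.13 on the untreated premature arrays, none of them well above background, and at 0.71, 0.71, 0.73 and 0.30 with PHE. Near-term values were -2.75, -2.78, -2.58 and -1.76 untreated and 2.83, 3.92, 5.13 and 4.65 with PHE. Newborn values were -3.84, -6.43, -2.24 and -1.52 untreated, replicate 2 not well above background, and -0.98, -0.60, -0.09 and -0.41 with PHE. The groups overlapped at no age, and untreated newborn arrays were the most spread.

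Adult values of A_70_P041731 stood at -2.57, -3.70, -2.93 and -3.57 untreated and at 2.15, 3.43, 3.13 and 1.57 with PHE. Its log2 differences were 6.39, 6.6, 2.99 and 5.76 in the order of age (SE 0.66, adjusted p = 6.43e-08, 5.16e-08, 0.00254 and 5.87e-07). The newborn difference is enlarged by untreated replicate 2, which stood at -6.43 and was not well above background. For the premature fetus, where the probe entered the comparison through its PHE arrays alone, the rise is given as at least 50.4-fold. Such a bound was taken where no untreated array of an age passed the background test, by lifting each untreated value to the faintest signal that did pass on its array.

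The third EGR1 probe, A_70_P023511, was named through the supplementary table alone and was dim. Untreated arrays stood at -6.62, -6.90, -5.80 and -6.58 in the premature fetus, at -6.17, -6.94, -6.05 and -5.05 in the near-term fetus and at -5.96, -6.55, -4.16 and -4.80 in the newborn lamb, none well above background. The PHE arrays of those ages stood at -1.59, -2.0, -1.81 and -2.14, at 0.35, 1.69, 3.36 and 3.0, and at -3.58, -3.71, -2.78 and -3.47. Each PHE group lay above the untreated group of its age. The rises were at least 9.37-fold, at least 72.1-fold and at least 2.43-fold. They are a description, since the probe entered these comparisons through its PHE arrays alone and owes its name to its values in the near-term fetus and newborn lamb. In the adult sheep, with untreated values of -5.17, -7.0, -5.07 and -6.19, of which replicates 1 and 3 were well above background, and PHE values of -0.04, 0.61, 0.27 and -1.37, the log2 difference was 5.72, which rests in part on signals not well above background.

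The newborn call of A_70_P023511 was lost without untreated replicate 1 (log2 difference 1.79), untreated replicate 2 (1.59), PHE replicate 3 (1.78) or PHE replicate 4 (2.01), and with normexp background correction (0.94, adjusted p = 0.539). Normexp also ended its call in the premature fetus (1.09, adjusted p = 0.326) and that of A_70_P041731 in the newborn lamb (1.82, adjusted p = 0.0529), which was lost by the study's t-test too, both unadjusted and adjusted (adjusted p = 0.167). In its adjusted form that t-test also ended the calls of A_70_P041732 in newborn and adult arteries (adjusted p = 0.0689 and 0.0745), of A_70_P041731 in near-term and adult ones (0.0675 and 0.0662) and of A_70_P023511 at each age but the premature fetus (0.0675, 0.0955 and 0.0662). The probes named by description, A_70_P059661 and A_70_P059662, were well above background on every array. Their differences were 3.50 and 3.86 in premature, 6.21 and 6.23 in near-term, 1.60 and 1.86 in newborn and 5.04 and 4.91 in adult arteries (SE 0.33 and 0.36), each called, the newborn ones not by the adjusted t-test (adjusted p = 0.0875 and 0.104).

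EGR3 was higher with PHE at all 4 ages, by 29.7-fold in the premature fetus (95% interval 11.8 to 74.3), 48.2-fold in the near-term fetus (19.2 to 120.8), 14.2-fold in the newborn lamb (5.68 to 35.7) and 68.2-fold in the adult sheep (27.2 to 170.9). EGR3 is induced by many of the signals that induce EGR1. Its call was the condition for its name here, so the levels describe and do not test. In the premature fetus it stood at -1.97, -2.02, -2.63 and -1.93 untreated and at 2.71, 2.75, 3.0 and 2.56 with PHE. In the near-term fetus it stood at -3.14, -2.96, -4.28 and -1.56 untreated, the value of replicate 3 not well above background, and at 1.74, 2.68, 2.85 and 3.14 with PHE.

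The newborn untreated arrays of EGR3 fell into a lower and a higher pair, at -3.88, -3.90, -0.84 and -1.33, against 0.84, 1.27, 1.24 and 2.02 with PHE. In the adult sheep the PHE arrays were the ones that spread. They stood at 3.40, -0.26, 1.97 and 1.48, over untreated values of -3.93, -4.98, -4.19 and -4.67. The log2 differences were 4.89, 5.59, 3.83 and 6.09 in the order of age (SE 0.65, adjusted p = 3.34e-06, 6.21e-07, 1.53e-04 and 1.44e-07), and every PHE array lay above every untreated array of its age. With the adjusted t-test the near-term, newborn and adult calls were lost (adjusted p = 0.0836, 0.0636 and 0.213).

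NR4A1, also known as Nur77, was higher with PHE at all 4 ages, with differences of 74.1-fold in the premature fetus (95% interval 33.8 to 162.4), 175.4-fold in the near-term fetus (80.0 to 384.5), 11.4-fold in the newborn lamb (5.19 to 24.9) and 107.3-fold in the adult sheep (49.0 to 235.2). The premature fetus is the age at which its probe was not matched to the supplementary table. There the arrays stood at -3.44, -2.96, -3.70 and -3.53 untreated and at 2.90, 2.46, 3.48 and 2.37 with PHE, a log2 difference of 6.21 (SE 0.55, adjusted p = 5.57e-09). In the near-term fetus the values were -3.14, -2.19, -2.69 and -1.03 untreated and 3.81, 5.68, 5.27 and 6.01 with PHE, a difference of 7.45.

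The newborn untreated arrays of NR4A1 spread from -2.91 in replicate 2 to 0.32 in replicate 4, with -2.09 and -0.93 in replicates 1 and 3, under PHE values of 1.74, 2.12, 1.81 and 2.73. The difference was 3.51 (adjusted p = 6.89e-05). In the adult sheep the PHE arrays were tight at 5.59, 5.42, 5.62 and 5.08 over untreated values of -0.32, -1.67, -2.37 and -0.91, a difference of 6.75 (adjusted p = 1.21e-09). The adjusted t-test ended the newborn and adult calls (adjusted p = 0.0557 and 0.0821). The probe was well above background on every array, and PHE and untreated arrays overlapped at no age.

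NR4A2, or Nurr1, moved far less. It was 2.15-fold higher with PHE in the premature fetus (95% interval 1.73 to 2.67), 2.11-fold in the near-term fetus (1.69 to 2.62) and 1.62-fold in the newborn lamb (1.30 to 2.01), and it did not pass the test in the adult sheep, at 1.17-fold (0.941 to 1.45). Premature untreated arrays stood at -0.18, -0.24, -0.42 and -0.38 and PHE arrays at 0.67, 0.87, 0.87 and 0.79. Near-term values were 0.25, 0.28, 0.02 and -0.02 untreated and 1.12, 1.43, 0.97 and 1.30 with PHE. The groups were tight and apart at both fetal ages.

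In the newborn lamb NR4A2 stood at 0.36, 0.54, 0.27 and 0.35 untreated and at 1.09, 0.91, 0.93 and 1.38 with PHE, again without overlap. In the adult sheep it was high already in untreated arteries, at 1.70, 1.64, 1.94 and 2.23, and the PHE arrays at 2.30, 1.85, 2.04 and 2.21 lay among them, 1 of 4 above all untreated arrays. The log2 differences were 1.10, 1.07, 0.69 and 0.23 in the order of age (SE 0.15, adjusted p = 6.73e-06, 1.13e-05, 0.00255 and 0.607). The near-term call was lost in the fit to the 8 arrays of that age (adjusted p = 0.108) and with the adjusted t-test (adjusted p = 0.0675), and the newborn call with scaling to the median (0.68, adjusted p = 0.165).

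**Figure D1:**
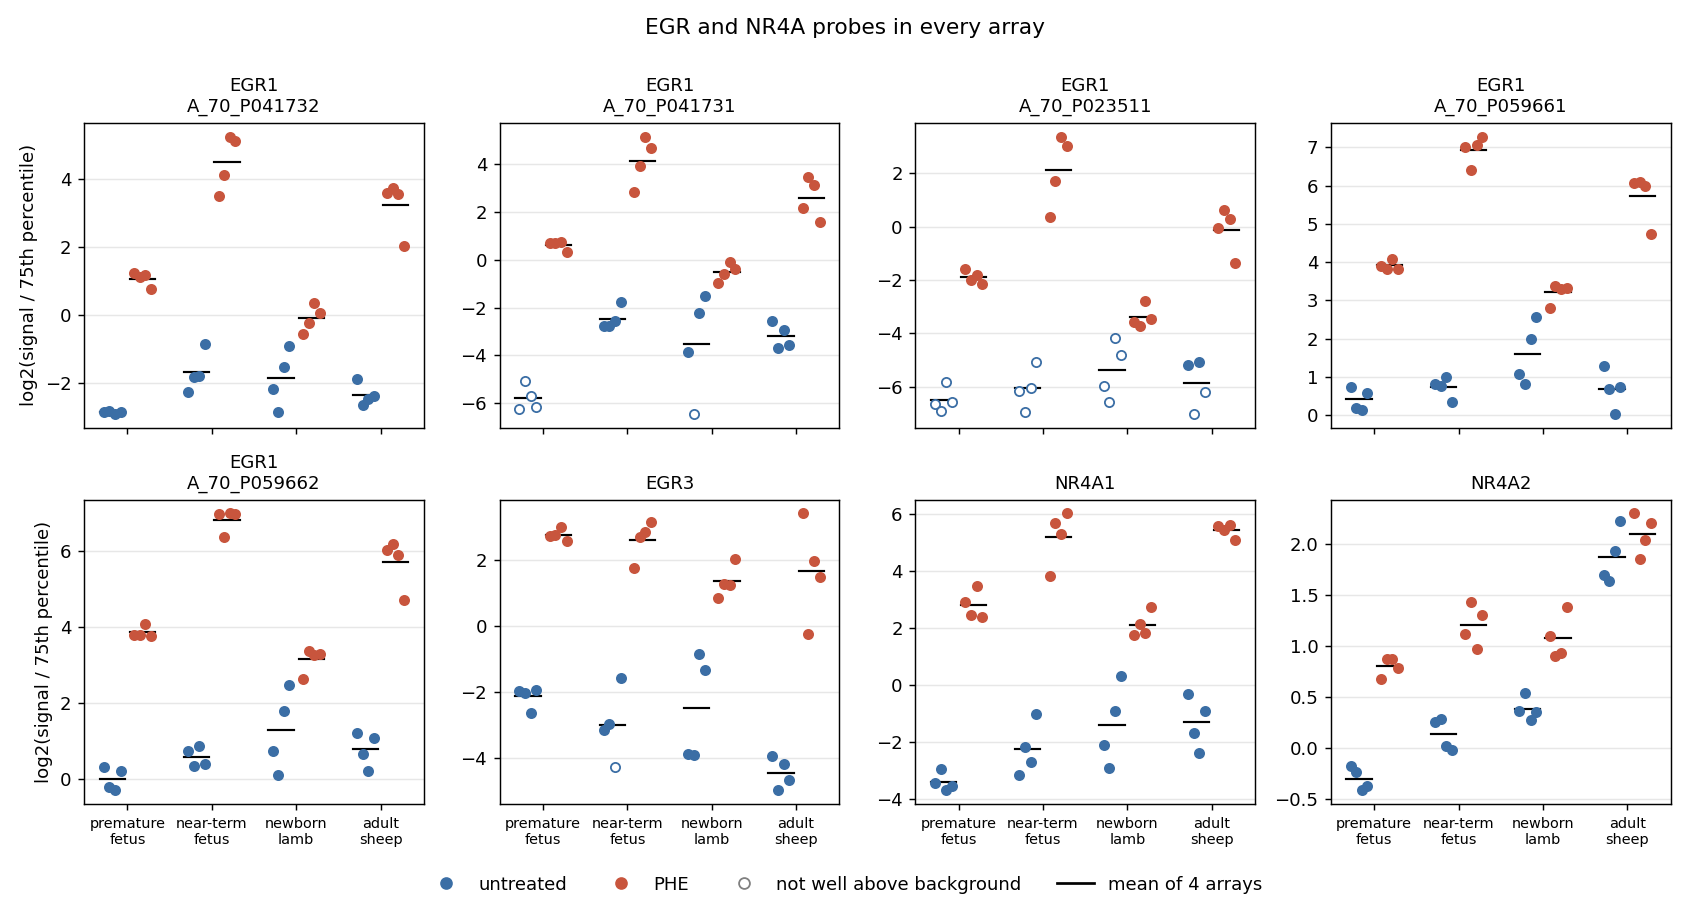
Log2 value relative to the array's 75th percentile (vertical axis) of each probe of EGR1, EGR3, NR4A1 and NR4A2 in the 4 ages (horizontal axis), a dot per array, untreated and PHE side by side. EGR1 on probe A_70_P041732 climbs from between -2.89 and -2.83 to between 0.76 and 1.22 in the premature fetus, while NR4A2 in the adult sheep holds 1.64 to 2.23 untreated and 1.85 to 2.30 with PHE.

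Counted over genes, 4 of 4 were called higher with PHE in the premature fetus, where 9.12% of all probes tested were. The near-term fetus also gave 4 of 4, against 17.5% of all probes. In the newborn lamb 4 of 4 stood against 5.90%, and in the adult sheep 3 of 4 against 3.04%. No member had a difference below 0 at any age, while 8.51%, 18.4%, 5.19% and 0.845% of all probes were called lower, in the order of age. Names drawn from the supplementary table favour altered genes. In near-term and newborn arteries the calls of EGR3, NR4A1 and NR4A2 follow from that naming and are no independent evidence. The same holds for EGR3 and NR4A2 in the premature fetus and for EGR3 and NR4A1 in the adult sheep. EGR1 alone has a name without the table. The shares are per probe, whereas a gene counts when any of its probes is called. Of named genes tested, 27.6%, 35.1%, 19.8% and 11.2% were called higher, and of those named by accession or by the files alone, 16.2%, 17.6%, 15.9% and 7.87%.

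Among all probes tested, ordered by the size of the rise, NR4A1 was number 23 of 10161 in the premature fetus, 6 of 9919 in the near-term fetus, 81 of 9796 in the newborn lamb and 8 of 9582 in the adult sheep. EGR1 on A_70_P041732 was number 89, 20, 301 and 23, and EGR3 number 50, 33, 63 and 14. NR4A2 was number 784, 1309, 1019 and 2123. The EGR and NR4A1 probes thus sat far up the order at each age, a place that the naming through altered genes favours for EGR3 and NR4A1.

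The slide on which an array lay is a batch that bears on some of these values. All premature arrays were on slide 5 and all newborn arrays on slide 4, so those comparisons were made within a slide. The 4 near-term PHE arrays shared slide 1 with untreated replicate 4 alone. Within that slide the log2 differences were 5.32 for EGR1 (A_70_P041732), 4.17 for EGR3, 6.22 for NR4A1 and 1.23 for NR4A2. The 4 adult PHE arrays shared slide 3 with 2 untreated arrays, and the differences within it were 5.47, 6.10, 6.42 and 0.43. With slide as a block no PHE call of these genes was gained or lost (near-term adjusted p = 3.58e-06, 0.00370, 1.50e-05 and 5.48e-04).

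The near-term background depends on the arrays fitted. With the spread taken from the 8 near-term arrays alone, 1.30% of probes tested were called higher, and EGR1, EGR3 and NR4A1 were still among them. Leaving out the dim untreated replicate 4 gave near-term differences of 6.07 for EGR3, 7.87 for NR4A1 and 1.02 for NR4A2. Leaving out PHE replicate 1 gave 5.88, 7.92 and 1.10, and leaving out untreated replicate 3 gave 5.16, 7.31 and 1.04, with 6.11 for EGR1 on A_70_P041732.

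Whether the response differed with age was tested as the difference of PHE effects for each of the 6 pairs of ages, which share arrays. EGR1 was the gene whose response differed most often. On A_70_P041732 and the pair named by description its rise was larger in near-term than in newborn or premature arteries, and larger in adult than in newborn ones. Differences of effects on A_70_P023511 rest in part on untreated values under background. They count for nothing here, though the probe stays in the counts of 6. NR4A1 passed the test between near-term and newborn arteries, and NR4A2 between the adult sheep and both fetal ages, and both owe their names to values that enter these differences. The NR4A1 pair and the NR4A2 pair of adult and premature arteries cross scans as well. EGR3 passed the test in no pair.

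Between the newborn lamb and the near-term fetus 4 of 6 probes were called, where 10.7% of all probes were. They include A_70_P023511, a description only, and NR4A1, which owes its name to values at both ages. The log2 difference of effects, newborn minus near-term, was -4.38 on EGR1 probe A_70_P041732 (SE 0.57, adjusted p = 6.83e-05), -3.61 on A_70_P041731 (adjusted p = 0.0152) and -6.17 on A_70_P023511, a description only. The probes named by description gave -4.62 and -4.37. NR4A1 gave -3.95 (SE 0.78, adjusted p = 0.00263), EGR3 -1.76 (SE 0.91, adjusted p = 0.219) and NR4A2 -0.38 (SE 0.22, adjusted p = 0.267).

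Without near-term PHE replicate 1 the EGR1 value on A_70_P041732 was -4.72 and that of NR4A1 -4.41, and without near-term untreated replicate 4 they were -4.66 and -4.36. With slide as a block A_70_P041732 (-3.56), A_70_P023511 (-5.17) and the pair named by description (-5.01 and -4.55) kept their calls, and A_70_P041731 (-2.90, adjusted p = 0.108) and NR4A1 (-2.71, adjusted p = 0.0544) lost them. The limma fit to the compared arrays alone ended the call of A_70_P041731 (adjusted p = 0.129).

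Between the near-term and the premature fetus 2 of 6 probes were called, where 4.43% of all probes were, and both were of EGR1. The difference of effects, near-term minus premature, was 2.23 on A_70_P041732 (SE 0.57, adjusted p = 0.0267) and 3.56 on A_70_P023511, a description only. A_70_P041731 gave 0.20 and did not pass, which is a description too, since no untreated premature array was well above background on it. Its premature rise was at least 50.4-fold, beside 96.9-fold in the near-term fetus. On A_70_P041732 these rises were 15.1-fold and 70.8-fold. The EGR1 probes thus did not agree on a larger near-term rise. The probes named by description gave 2.71 and 2.37 (adjusted p = 0.00293 and 0.00980).

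The near-term excess of A_70_P041732 over the premature fetus was sensitive to single arrays. It was 2.51 without near-term untreated replicate 4 (adjusted p = 0.0102) and 2.56 without near-term PHE replicate 1 (adjusted p = 0.00483), and the pair named by description gave 2.58 and 2.31, then 2.69 and 2.33, all called. Its call was lost without premature untreated replicate 1 (2.23), premature PHE replicate 2 (2.24) or 4 (2.13), near-term untreated replicate 3 (2.19) or near-term PHE replicate 3 (1.98), at adjusted p between 0.0518 and 0.0719. With slide as a block it was 1.41 (adjusted p = 0.198) and that of A_70_P023511 2.56 (adjusted p = 0.111), while the pair named by description kept their calls at 3.1 and 2.56. Both calls were also lost in the fit to the compared arrays alone (adjusted p = 0.0652 and 0.0548), and that of A_70_P023511 with normexp (2.55, adjusted p = 0.130). EGR3 (0.70), NR4A1 (1.24) and NR4A2 (-0.03) did not differ at the threshold.

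Between the adult sheep and the newborn lamb 1 of 6 probes was called, where 0.0961% of all probes were. EGR1 on A_70_P041732 rose more in the adult by 3.79 (SE 0.57, adjusted p = 0.00150), and the pair named by description by 3.45 and 3.04. With slide as a block these were 3.65, 3.26 and 2.98, all called. A_70_P041731 (2.77, adjusted p = 0.484), A_70_P023511 (3.74, adjusted p = 0.0790), NR4A1 (3.24, adjusted p = 0.123), EGR3 (2.26) and NR4A2 (-0.47) did not pass. Without newborn untreated replicate 2 the first 3 of these passed, at 3.75, 4.13 and 3.74. A_70_P023511 also passed without adult PHE replicate 4 (4.15) or near-term PHE replicate 1 (3.74) with the replicate number as a block (adjusted p = 0.0447), with median scaling (3.68, adjusted p = 0.0403) and with the floor of 0.01 (3.65, adjusted p = 0.0426). With array weights it passed at 3.69 and NR4A1 at 2.69. The limma fit to the compared arrays alone ended the call of A_70_P059662 (adjusted p = 0.0662).

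NR4A2 gave a difference of effects of -0.85 in adult minus near-term (SE 0.22), the 1 probe of 6 called where 10.7% of all probes were, and of -0.88 in adult minus premature (SE 0.22), the 1 of 6 called where 0.838% were. The supplementary table lists the gene at the fetal and newborn ages and not in the adult sheep, and the probe was named by its values at the former. These differences use the same values, so they describe and do not test a smaller adult response. Without near-term untreated replicate 4 adult minus near-term was -0.80, and without near-term PHE replicate 1 it was -0.88. Their calls also moved with the settings. The former was lost with slide as a block (-0.86, adjusted p = 0.0512), with scaling to the median (-0.78, adjusted p = 0.279) and in the fit to the compared arrays alone (adjusted p = 0.238). The latter was lost with slide as a block (-0.73, adjusted p = 0.128), with the replicate number as a block (adjusted p = 0.0793), with median scaling (-0.84, adjusted p = 0.647), with normexp (adjusted p = 0.0647), without the filter on dim probes (adjusted p = 0.0668), with 1 probe per named gene (adjusted p = 0.0507) and without any of 21 of the 32 arrays (adjusted p between 0.0525 and 0.122). These were every premature array (between -0.92 and -0.84), adult untreated replicates 1, 3 and 4 (-0.94, -0.86 and -0.76), adult PHE replicates 2 and 3 (-0.79 and -0.86), every newborn untreated array, newborn PHE replicates 1 to 3 and near-term untreated replicate 1 (-0.88 each).

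EGR1 differed in neither of these 2 pairs by limma, and some settings called it. In adult minus premature A_70_P041732 gave 1.63 (adjusted p = 0.208) and the pair named by description 1.54 and 1.05. With array weights A_70_P041732 (1.58, adjusted p = 0.0260) and A_70_P059661 (1.26, adjusted p = 0.0453) passed, the latter also without adult PHE replicate 4 (1.87). In adult minus near-term A_70_P041732 gave -0.60 and the pair -1.17 and -1.32, and with normexp the pair passed (-1.49 and -1.42, adjusted p = 0.0307 and 0.0430). A_70_P023511, a description only and not called there (-2.43, adjusted p = 0.0539), passed with the replicate block (adjusted p = 0.0334), with quantile normalization (-4.18), with array weights (-2.97), with the floor of 0.01 (-2.45), and without near-term PHE replicate 1 (-3.01), near-term untreated replicate 4 (-2.76), adult untreated replicate 2 (-2.81) or adult PHE replicate 2 (-2.68).

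The newborn lamb and the premature fetus, scanned together, gave 0 of 6 probes by limma, where 0.00968% of all probes, a single one, were called. Unadjusted, 4 of 6 were under 0.05, of which A_70_P041731 and A_70_P023511 had no untreated premature array well above background and are a description. EGR1 gave -2.15, -3.40 and -2.61 on its probes, NR4A1 -2.70, EGR3 -1.06 and NR4A2 -0.41, newborn minus premature, at adjusted p of 0.416 or more. The pair named by description gave -1.91 and -1.99 (adjusted p = 0.307 and 0.366). With array weights in limma A_70_P041732 (-1.98), NR4A1 (-2.49) and the pair (-1.85 and -1.90, adjusted p = 0.00483 and 0.0121) were called, and in the fit to the compared arrays alone A_70_P041732 (adjusted p = 0.0409). The other 2 probes passed with array weights (A_70_P023511, -2.43) and without newborn untreated replicate 2 (A_70_P041731, -4.38), which adds nothing. A difference between the newborn lamb and the premature fetus was thus called under some settings only.

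**Figure D2:**
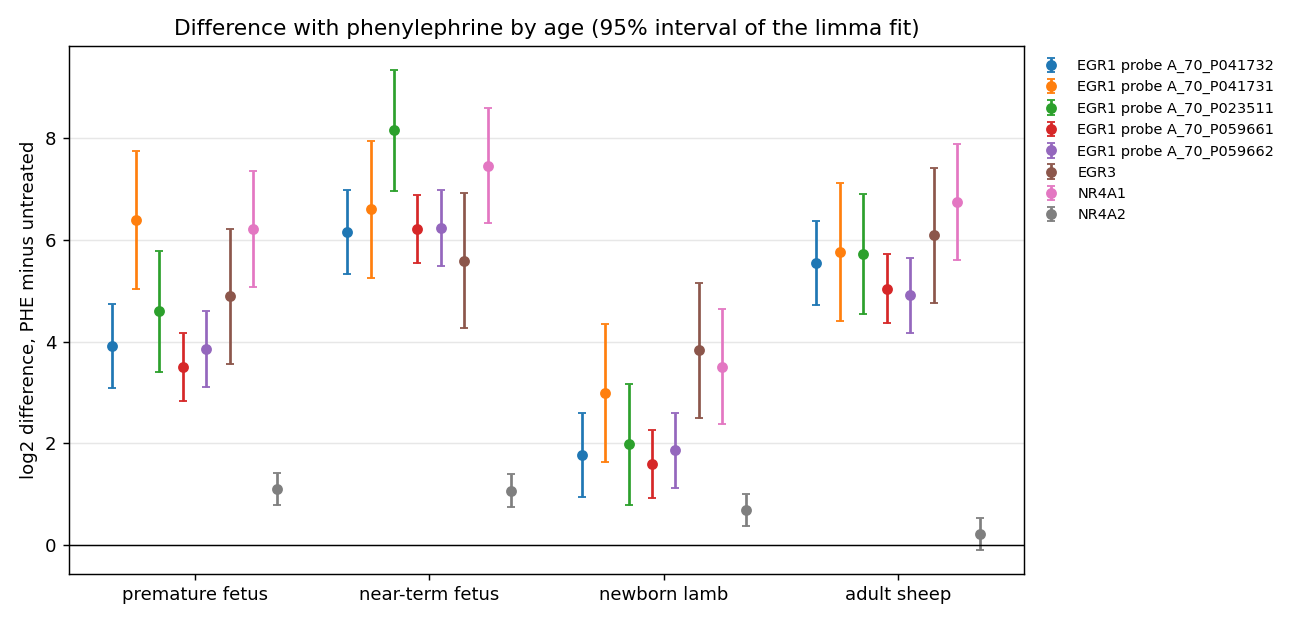
Log2 difference, PHE minus untreated (vertical axis), of each probe at the 4 ages (horizontal axis), with the 95% interval of the limma fit to 32 arrays. EGR1 probe A_70_P041732 stands at 3.92, 6.15, 1.76 and 5.55, and NR4A2 at 1.10, 1.07, 0.69 and 0.23.

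The levels reached with PHE had an order of their own. On A_70_P041732 EGR1 was lowest in the newborn lamb (mean -0.09, SD 0.38), then premature fetus (1.07, SD 0.21), adult sheep (3.22, SD 0.80) and near-term fetus (4.48, SD 0.84), and only the last pair overlapped. The other EGR1 probes had the same order. NR4A1 ran from the newborn lamb (2.10, SD 0.45) and premature fetus (2.80, SD 0.51), which overlapped, to the near-term fetus (5.19, SD 0.97) and adult sheep (5.43, SD 0.25), which overlapped too. For EGR3 all neighbouring ages overlapped, from 1.35 (SD 0.49) in the newborn lamb to 2.75 (SD 0.18) in the premature fetus. NR4A2 was lowest in the premature fetus (0.80, SD 0.09) and highest in the adult sheep (2.10, SD 0.20), the latter clear of all other ages. Between ages scanned apart, age and scan cannot be told apart.

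Untreated arteries were compared between ages scanned together. NR4A2 was the gene that differed most clearly. It was 3.35-fold higher in the adult sheep than in the near-term fetus (95% interval 2.69 to 4.16), a log2 difference of 1.74 (SE 0.15, adjusted p = 1.58e-09), with all 4 adult arrays above all near-term ones. The difference was 1.83 within slide 2 (2 arrays against 1) and 1.52 within slide 3 (2 against 2), and 1.64 with slide as a block. This was 1 of 5 probes tested, where 43.4% of all probes were called. EGR3 (-1.46, adjusted p = 0.0649), NR4A1 (0.94, adjusted p = 0.161) and EGR1 on A_70_P041732 (-0.67, adjusted p = 0.175) did not pass. Without near-term untreated replicate 4 the differences were 1.69 for NR4A2 (adjusted p = 1.22e-08), -0.98 for EGR3 (adjusted p = 0.238), 1.36 for NR4A1 (adjusted p = 0.0553) and -0.39 for A_70_P041732.

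Other settings moved some of these untreated values over the threshold. NR4A1 passed with slide as a block (1.47, adjusted p = 0.0416) and with median scaling (1.48), and stood at 1.5 within slide 2 and 1.45 within slide 3. EGR3 passed with normexp (-2.15) and without near-term untreated replicate 3 (-1.89), newborn untreated replicate 3 or adult PHE replicate 1 or 2 (-1.46), and stood at -1.29 and -0.83 within slides 2 and 3. Normexp also called EGR1 lower in the adult sheep on A_70_P041732 (-1.13) and A_70_P041731 (-1.58).

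Between the untreated newborn lamb and premature fetus, NR4A1 was 4.01-fold higher in the newborn (log2 2.00, SE 0.55, adjusted p = 0.0162) and NR4A2 1.61-fold (log2 0.69, SE 0.15, adjusted p = 0.00334), 2 of 4 probes tested where 11.0% of all probes were called. The EGR1 probes named by description were higher by 1.20 and 1.28 (adjusted p = 0.0159 and 0.0196). EGR1 on A_70_P041732 (0.99, adjusted p = 0.116) and EGR3 (-0.35) did not pass. Each of these groups lay on a slide of its own, so age and slide cannot be told apart. The NR4A1 call was lost without newborn untreated replicate 3 (1.85, adjusted p = 0.0555) or replicate 4 (1.43, adjusted p = 0.107), with normexp (0.99, adjusted p = 0.284) and by the study's t-test, both unadjusted and adjusted (adjusted p = 0.146). That of NR4A2 was lost with median scaling (0.64, adjusted p = 0.182). The pair named by description lost theirs with median scaling (1.16 and 1.23), by that t-test, both unadjusted and adjusted (adjusted p = 0.134 and 0.186), for A_70_P059662 also on the compared arrays alone (adjusted p = 0.0689), and without newborn untreated replicate 3 (1.07 and 1.11) or 4 (0.88 and 0.88) or premature untreated replicate 2 (1.12 and 1.20) or 3 (1.11 and 1.18). EGR1 on A_70_P041732 passed without newborn untreated replicate 2 (1.31) and with array weights (0.82, adjusted p = 0.0202).

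The newborn untreated arrays differed among themselves in these genes. Replicates 3 and 4 lay above the mean of the 4 arrays, and replicates 1 and 2 below, for EGR1 on every probe, for EGR3 and for NR4A1. Other early genes varied between the same arrays. FOS stood at 0.75, -2.60, 0.61 and 2.32 in replicates 1 to 4, JUNB at -1.11, -1.68, -0.03 and 0.50, and ATF3 at 0.38, -1.22, 0.51 and 1.58. Of the 22 other immediate early genes described next, 15 lay above their group mean in replicate 3 and 15 in replicate 4, against 10 in replicate 1 and 3 in replicate 2. How much of the small newborn difference goes with these arrays was not tested beyond leaving each out. EGR1 on A_70_P041732 then differed with PHE by 1.66, 1.44, 1.87 and 2.08 without replicates 1, 2, 3 and 4 in turn, and NR4A1 by 3.28, 3.01, 3.67 and 4.08.

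**Figure D3:**
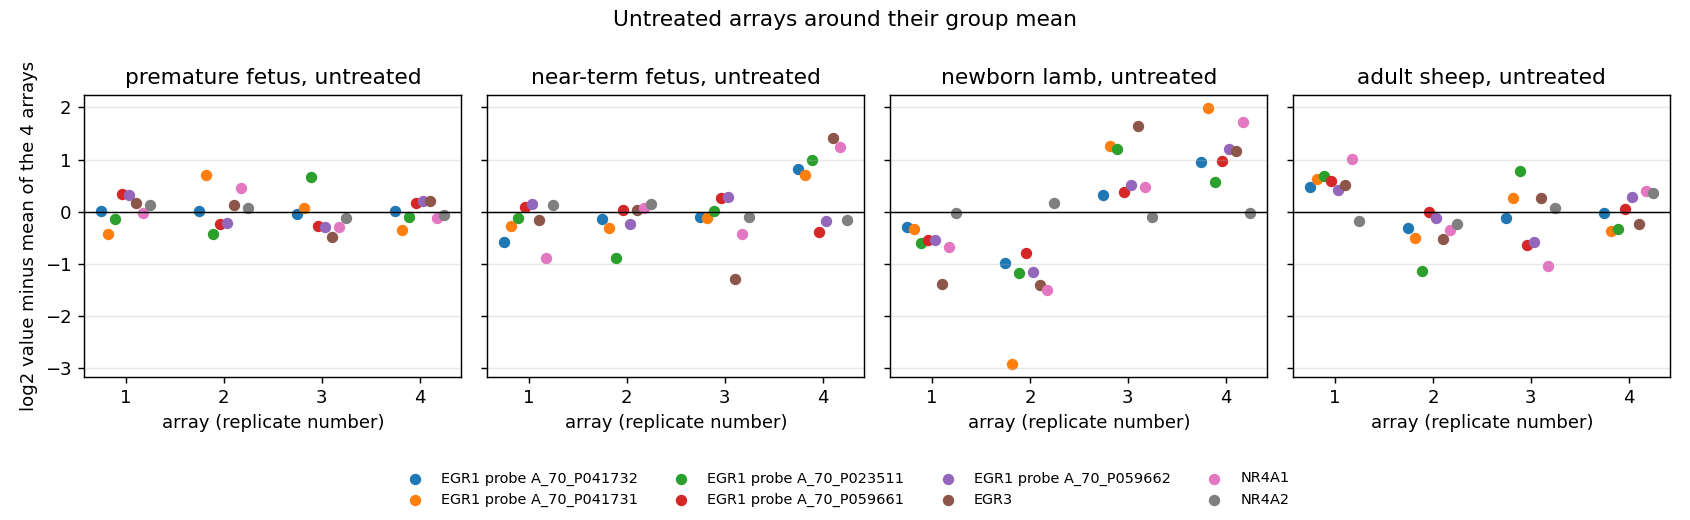
Log2 value of each probe on each untreated array minus the mean of the 4 arrays of its group (vertical axis), by replicate number (horizontal axis), a panel per age. In the newborn lamb replicates 3 and 4 lie above 0 for EGR1, EGR3 and NR4A1, whereas the NR4A2 values run only from 0.27 to 0.54 before the mean is subtracted.

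Other genes of the same families and their partners were few on the array. Of 9 listed, 4 had a probe with a name (NAB1, NAB2, RXRB and WT1) and 3 were tested at each age, with 2, 1, 2 and 1 called higher in the order of age, where 9.12%, 17.5%, 5.90% and 3.04% of all probes were, and none lower. NAB2, a corepressor that EGR proteins induce and that then restrains them, was higher by 1.03 in premature, 1.66 in newborn and 1.43 in adult arteries (SE 0.30), and at 0.63 did not pass in near-term ones. NAB1, its relative, was higher by 1.17 in the premature fetus and 0.72 in the newborn lamb (SE 0.21). RXRB, a retinoid X receptor, the family with which NR4A1 and NR4A2 can pair, was higher in the near-term fetus alone among the calls (0.83, SE 0.31). WT1 was too dim to be tested. EGR2, EGR4 and NR4A3 had no probe with a name.

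Few signals upstream of these genes were measured, and those with a name had it through the supplementary table. Not all of them are described here. MAPK14, the p38alpha kinase, was lower with PHE at all 4 ages, by -1.23, -0.80, -1.09 and -0.77 (SE 0.21). CREB1, a calcium-responsive and cAMP-responsive factor, was higher in the near-term fetus (2.00, SE 0.26, 3 of 4 untreated arrays well above background) and passed at no other age. No alpha1-adrenergic receptor gene had a probe with a name.

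Other immediate early genes rose in large numbers. Of 28 listed, 22 had a probe and were tested, and 17, 21, 15 and 17 were called higher in the order of age, again where 9.12%, 17.5%, 5.90% and 3.04% of all probes were, with 1 lower in the newborn lamb. Their median log2 difference was 3.22, 3.79, 2.29 and 3.54, beside -0.09, -0.08, -0.08 and -0.04 over all probes tested. These counts include probes that entered through their PHE arrays, since not every untreated array was well above background, 7 of the 22 in the near-term fetus. Over the genes well above background on every array of both groups, 17 of 21, 15 of 15, 14 of 20 and 15 of 20 were called higher, where 8.37%, 13.3%, 5.01% and 2.80% of all such probes were, and the medians were 3.23, 3.60, 2.29 and 3.51. Of the 22, only 7 had a name by accession or in the files, without the supplementary table, and these gave 6, 7, 5 and 5 called higher, with medians of 4.12, 4.16, 2.29 and 4.31. The lists are described by counts and medians only.

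Among the immediate early genes called higher at all 4 ages were JUNB, BTG2, MYC, PTGS2, ATF3 and IER2. The AP-1 subunit JUNB was higher by 5.91, 6.03, 4.03 and 4.72 (SE 0.35), and the growth regulator MYC by 4.22, 4.16, 4.05 and 5.06 (SE 0.39). Among probes well above background on every untreated array of the age, the largest rises were those of FOS at 7.54 in the near-term fetus, of ATF3, a stress-induced factor, at 6.28 in the premature fetus, and of BTG2, an antiproliferative gene, at 6.26 in the adult sheep. FOS stood at 2.29 in the newborn lamb and did not pass there (SE 0.81, adjusted p = 0.0655). JUN was called at a single age, the near-term fetus (3.99, SE 0.43). CTGF, a matricellular gene, was lower by -1.96 in the newborn lamb and higher by 1.62 in the near-term fetus (SE 0.51).

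Across ages, the difference of effects, newborn minus near-term, was called for 10 of 22 genes of the early list, all negative, where 10.7% of all probes were called either way. The 22 include the 7 without a full set of near-term untreated arrays well above background. Its median over the list was -1.42, beside 0.05 over all probes. By limma 0 of 22 were called in adult minus newborn and 0 of 22 in newborn minus premature, where 0.0961% and 0.00968% of all probes were called. The median was 0.92 in adult minus newborn and -0.79 in newborn minus premature, beside 0.05 and 0.00 over all probes.

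Feedback inhibitors of early gene signalling, which dampen MAP kinases, growth factor receptors, cAMP signalling or short-lived messengers, gave 15, 13, 11 and 11 of 16 called higher, against the same 9.12%, 17.5%, 5.90% and 3.04% of all probes, and none lower, of 19 listed. Probes that entered through their PHE arrays alone are counted here too. Over those well above background on every array of both groups, 11 of 12, 8 of 10, 7 of 12 and 9 of 14 were higher, where 8.37%, 13.3%, 5.01% and 2.80% of all such probes were, with medians of 3.1, 2.85, 1.71 and 2.04. Feedback inhibitors called higher at all 4 ages included TRIB1, SIK1, CREM and ERRFI1. SOCS3, a brake on cytokine receptors, was higher by 7.29 in the adult sheep (SE 0.59). At the other ages it was well above background on 1 untreated array of 4, and no size is given. The same holds for DUSP5, a MAP kinase phosphatase (0, 2, 0 and 0 untreated arrays in the order of age), and PDE4B, a cAMP phosphodiesterase (1, 0, 1 and 1). Probes in that position entered the comparison through their PHE arrays alone. ZFP36, which speeds the decay of AU-rich messengers, was higher by 3.15, 4.56, 1.77 and 3.90 (SE 0.31). DUSP1 was higher in the premature fetus, near-term fetus and adult sheep (2.11, 3.33 and 2.07, SE 0.50) and stood at -0.17 in the newborn lamb. DUSP6 was called at no age. Of the 16, 3 had a name without the supplementary table, and these gave 3, 3, 2 and 3 higher.

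Genes described as EGR1 targets in vessels were followed as well. Of 22 listed, 18 had a probe, and 9 of 17 tested in the premature fetus, 8 of 15 in the near-term fetus, 8 of 16 in the newborn lamb and 6 of 14 in the adult sheep were called higher, against 9.12%, 17.5%, 5.90% and 3.04% of all probes, with 1, 1, 0 and 0 lower by limma. Over those well above background on every array of both groups, 7 of 15, 5 of 12, 5 of 13 and 2 of 10 were higher, where 8.37%, 13.3%, 5.01% and 2.80% of all such probes were, with medians of 1.23, 0.73, 0.61 and 0.64. Of those with a name without the supplementary table, 4 of 9, 3 of 9, 3 of 6 and 2 of 6 were higher. Targets called higher at all 4 ages were CCL2, ICAM1, SPRY2 and IL1B. CCL2, a monocyte chemokine, was higher by 5.69, 3.07, 5.20 and 3.49 (SE 0.77, 3 of 4 untreated adult arrays well above background), the adhesion molecule ICAM1 by 3.95, 3.98 and 3.56 before adulthood (SE 0.54) and in the adult sheep, where 2 untreated arrays were well above background, and SPRY2 by 2.16, 1.68, 1.64 and 1.03 (SE 0.22). IL1B, an inflammatory cytokine, was called at all 4 ages and TNF at the 3 before adulthood, without being tested in the adult sheep. Their untreated arrays well above background were 1, 2, 0 and 2 for IL1B and 1, 3 and 0 for TNF, so their sizes are not given.

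Targets called at 1 age included MMP14 (1.32, near-term fetus), THBS1 (2.42, near-term fetus) and PLAU (2.81, newborn lamb), the last 2 with 3 of 4 untreated arrays well above background. They act in matrix breakdown, cell adhesion and plasminogen activation. PDGFB, FGF2 and TGFB1 passed at no age at which they were tested, and FLT1 was too dim to be tested. IL1B, TNF, CCL2 and ICAM1 are also targets of inflammatory signalling, and which factor bound which gene was not measured.

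**Figure D4:**
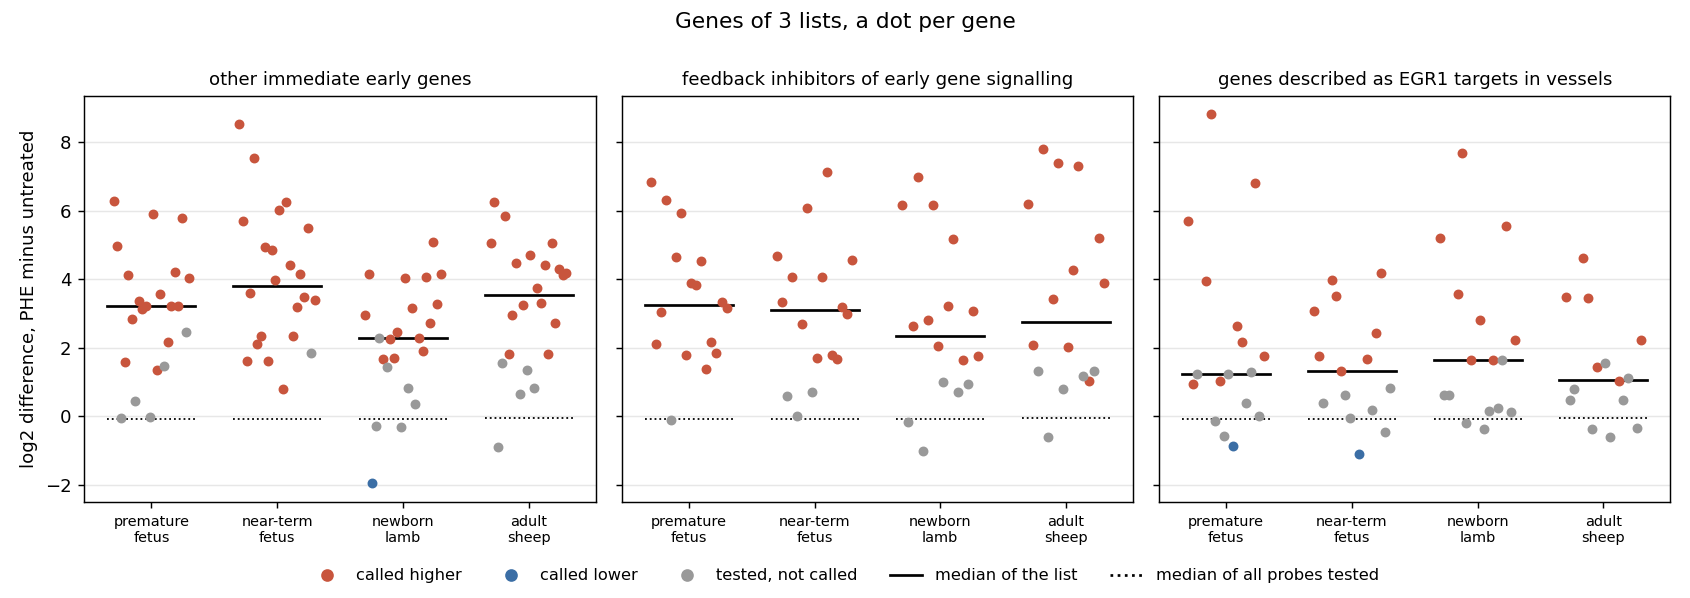
Log2 difference, PHE minus untreated (vertical axis), of the genes of 3 lists at the 4 ages (horizontal axis), a dot per gene with its call marked, including genes not well above background on every untreated array. All 22 other immediate early genes have medians of 3.22, 3.79, 2.29 and 3.54, and all tested genes described as EGR1 targets 1.24, 1.32, 1.65 and 1.07.

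The genes whose levels followed each member most closely over the 32 arrays were sought among 2415 named probes. The arrays share their ages and treatments, so these correlations describe and are given without a test. EGR1 on A_70_P041732 went with IER2 (Pearson r 0.97, Spearman rho 0.95), ZFP36 (0.96 and 0.93), NR4A1 (0.95 and 0.96), SOCS3 (0.93 and 0.91) and JUNB (0.93 and 0.95). NR4A1 went with JUNB (0.98 and 0.97), BTG2 (0.97 and 0.95), ZFP36 (0.97 and 0.96), SOCS3 (0.96 and 0.91) and GADD45B (0.95 and 0.92). EGR1 and NR4A1 thus shared ZFP36, SOCS3 and JUNB among their 5 nearest genes.

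EGR3 had other neighbours, MYC (0.97 and 0.93), IRF1 (0.96 and 0.95), PTGS2 (0.94 and 0.90), BAMBI (0.94 and 0.93) and GCH1 (0.93 and 0.88). They were higher with PHE at all 4 ages. Neighbours of NR4A2 included BCL7B (0.93 and 0.93), LOC105607409 (0.92 and 0.90), TACC1 (0.91 and 0.91) and FHL3 (0.90 and 0.90), none of them an immediate early gene on the lists. BCL7B, TACC1 and FHL3 were named through the supplementary table at the fetal ages alone, which favours a fetal response.

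The tissue label was checked against markers. CNN1, calponin of smooth muscle and the only smooth muscle marker of 5 with a named probe, was well above background on every array and was called at no age (-0.27, -0.69, -0.21 and 0.12 with PHE). It averaged 5.10 in untreated premature arteries and 8.64 in untreated adult ones, ages scanned apart, so age and scan cannot be told apart there. KDR, the only endothelial marker of 5 with a named probe, was well above background on 2 untreated and 2 PHE arrays of the near-term fetus and on none of the other ages, so endothelium cannot be followed here.

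Markers of other cells moved with PHE at some ages. COL1A1 and COL1A2, collagen genes of fibroblasts, were higher in the near-term fetus (4.22 and 4.22), and COL1A2 in the premature fetus (1.89), whereas DCN was called at no age. These were the fibroblast markers with a named probe, of 5 listed. The summed fibroblast level was 6.52 untreated and 6.25 with PHE in premature, 5.04 and 5.92 in near-term, 4.95 and 5.76 in newborn and 3.34 and 3.23 in adult arteries. A summed level here is the log2 of the sum of the markers' values before the log2 step. The brightest probe weighs most in it, so it is no measure of cell number.

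CD68, a macrophage marker, was higher in the near-term fetus (0.99), newborn lamb (1.45) and adult sheep (1.24, SE 0.35), and CD14 was called at no age. The summed level of these leukocyte markers, of 6 listed, was 0.97 untreated and 1.94 with PHE in premature, 1.32 and 0.68 in near-term, 1.22 and 2.31 in newborn and -0.96 and 0.25 in adult arteries. HBA1 of red blood cells was lower with PHE in the premature (-1.96) and near-term fetus (-2.38, SE 0.39) and HBB at no age. The summed blood level was 5.34 untreated and 3.57 with PHE in premature, 3.99 and 1.73 in near-term, 4.89 and 3.95 in newborn and 2.44 and 1.69 in adult arteries. No fat marker (FABP4, PLIN, LPL) or brain marker (GFAP, MBP) was called. The part of these cells in the EGR and NR4A values was not tested.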

How the data were processed

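The files hold the intensity of each spot of Agilent sheep arrays, which the authors read with Feature Extraction 9.5.3.1, background subtracted and deposited as scanner text. The deposited matrix differed from these intensities in 0 values. Of 15744 spots, 536 were controls, and 50 probes spotted more than once were averaged, leaving 15008 probes. Values were scaled to the 75th percentile of each array and put on the log2 scale.

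Names came from accessions (543 probes), from a match of group means to the study's first supplementary table within 0.1% (1884) or from the files (425), and 12156 probes stayed unnamed. Where both existed, the match gave the same symbol as the files for 122 of 129 probes and as the accession for 60 of 65. The members and gene lists were chosen with earlier results of these data known.

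A model of 8 group means was fitted to 32 arrays with limma 3.58.1 (R 4.3.3), with a single spread per probe, no block and two-sided tests. Probes entered a comparison if every array of 1 or more of its groups showed them well above background. The code was tested on simulated data. Tables and figures used Python 3.11.15, pandas 2.3.3, numpy 2.4.6, scipy 1.17.1 and matplotlib 3.10.9.

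Whether replicate numbers pair untreated and PHE arrays was checked by correlating their deviations from group means. The coefficients were 0.404 to 0.560 in the premature fetus and 0.512 to 0.605 in the newborn lamb, against -0.157 to 0.432 in the near-term fetus and -0.107 to 0.0501 in the adult sheep. No pairing is stated, so it was used only as an alternative.

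List genes named in the text are those called at all ages or at 1 age and the 3 largest rises and falls. After the values were seen, the sizes of rises were kept to probes with most untreated arrays well above background. The part of this rule on the most abundant gene was not used, since probe levels are not comparable. Other list genes named, such as FOS, DUSP1, DUSP6, ZFP36 and the genes called at no age, were chosen after their values were seen.

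Alternatives were normexp background correction with offset 50, quantile normalization, median scaling, the deposited matrix, a floor of 0.01, other filters on dim probes, the compared arrays alone, array weights, replicate or slide as a block, the study's t-test with and without adjustment, other naming and leaving out each array. Counting the EGR1 probes named by description was chosen after seeing the data.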

Additional observations from a re-analysis of the deposited data

Results flagged for a closer look

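Chance sets about 1 in 20 groups of 4 arrays apart by Dixon's criterion, and 9 of 64 groups of a probe and treatment passed it here. An array stood below its group on EGR1 probe A_70_P059661 in newborn PHE replicate 1 (2.81) and adult PHE replicate 4 (4.75), and on A_70_P059662 in near-term PHE replicate 2 (6.37) and newborn PHE replicate 1 (2.65). Premature PHE replicate 3 stood above its group on A_70_P059662 (4.10). Low arrays on the other EGR1 probes were premature untreated replicate 3 (-2.89) and adult PHE replicate 4 (2.02) on A_70_P041732, and premature PHE replicate 4 (0.30) on A_70_P041731. EGR3 was low in premature untreated replicate 3 (-2.63). The probes of EGR1 share their arrays, so these are not separate events, and the cause was not tested.

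Differences of PHE effects between ages that passed limma's test were singled out as well. Near-term minus premature, EGR1 gave 3.56 on A_70_P023511, 2.23 on A_70_P041732, 2.71 on A_70_P059661 and 2.37 on A_70_P059662. Newborn minus near-term, EGR1 gave -6.17 on A_70_P023511, -3.61 on A_70_P041731, -4.38 on A_70_P041732, -4.62 on A_70_P059661 and -4.37 on A_70_P059662, and NR4A1 -3.95. Adult minus newborn, EGR1 gave 3.79 on A_70_P041732, 3.45 on A_70_P059661 and 3.04 on A_70_P059662. The values of A_70_P023511 rest in part on untreated signals under background and are a description only. NR4A2 gave -0.88 in adult minus premature and -0.85 in adult minus near-term, from values that also named its probe. The newborn and premature arrays were scanned apart from the near-term and adult ones, so in pairs across scans age and scan cannot be told apart.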

How the results depend on the processing

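The count of members called higher with PHE, 4, 4, 4 and 3 of 4 in the order of age, stayed within 1.5 times under every alternative but 2. The study's t-test with Benjamini-Hochberg adjustment gave 2 for near-term, 1 for newborn and 0 for adult arteries, where limma and the unadjusted t-test gave 4, 4 and 3. Names by accession or by the files only gave 1 at each age, because EGR1 alone is then named. Leaving out each array in turn gave 4 to 4, 4 to 4, 4 to 4 and 3 to 3.

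Of 6 probes, 5 had a PHE effect that differed between some ages, and 5 to 5 without single arrays. These include A_70_P023511, whose differences rest in part on signals under background. The filter on both groups gave 3, since fewer probes are then tested, slide as a block 2, 1 probe per named gene 3 and names by accession or by the files 2. Untreated ages of a scan differed for 2 probes. This became 4 with normexp, 1 with the unadjusted t-test, 1 with the adjusted one, 0 with names by accession or by the files (limma, with 1 probe at an unadjusted p under 0.05) and 4 with the EGR1 probes named by description. Without single arrays it was 1 (newborn untreated replicate 4) to 4 (newborn untreated replicate 2). Where construction does not show it, the cause was not tested.

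Over single probes no called difference reversed. These tallies leave out, of the 17 alternatives, those that only alter which probes count as members. Of 465 PHE differences under the others, 443 stayed on their side of the threshold and 22 lost their call, and without single arrays 1020 of 1024 stayed. Differences of PHE effects between ages were less settled, with 18 losing and 19 gaining a call of 598, and with 26 and 11 of 1536 without single arrays. Of 180 differences between untreated ages, 11 lost and 6 gained a call, and 10 and 5 of 416 without single arrays. With the replicate number as a block, which could pair arrays, the calls that moved were those of NR4A2 in adult minus premature (lost) and of A_70_P023511 in adult minus near-term and adult minus newborn (gained).

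The background moved more. In the near-term fetus 1740 probes were called higher and 1821 lower, against 748 and 3466 with normexp and 129 and 1 on the arrays of that age alone. The adjusted t-test gave 18 and 0 there. In the adult sheep 291 and 81 became 529 and 353 with array weights, 146 and 15 on the arrays of that age alone and 8 and 1 with the adjusted t-test. Median scaling moved the median over all probes by -0.12 in the premature and -0.15 in the near-term fetus, and normexp by -0.13 in premature, -0.34 in near-term and 0.11 in newborn arteries.

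With 4 arrays a group, a bulk tissue and a single dose and time, these values give no course over time and no cell of origin. Signal over background limits the near-term fetus, where the 75th percentile of 1 array stood at 1.41 times background, and the EGR1 probe A_70_P023511, dim without PHE at every fetal and newborn age. Protein was not analysed here. Slide and age or treatment overlap in part, and names that rest on the study's list of altered genes favour a call.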
